A study of Homo sapiens with 6 samples.

Results

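The molecular chaperones of the cytosol and the chaperonins were followed in T98G cells, a human glioblastoma line, as a set of 34 genes chosen by name out of 35750 genes listed. That choice was made with earlier results of these data known. The set holds 2 heat shock transcription factors, 10 genes that HSF1 is known to induce, 8 constitutive chaperones and cofactors of the cytosol, 3 chaperones of mitochondria, the 8 subunits of the CCT ring and 3 subunits of prefoldin. The 34 genes stood in 35 rows of the table, since HSPA14 has 2 overlapping gene models. HSPA9, HSPD1 and HSPE1 encode mitochondrial proteins, so the set is not purely cytosolic, and they are given apart. Poly(A)-selected RNA was sequenced from 3 libraries labelled shSLC1A5, with a short hairpin RNA against SLC1A5, a transporter that carries glutamine into the cell, and from 3 libraries labelled shControl. The labels give T98G as the background of every library and name neither the hairpin sequence, nor the vector, nor the time of harvest, nor whether the line was cloned, and no label says that the 3 libraries of a group were separate cultures. The p-values below thus set the difference between groups against the spread among 3 libraries of a group, a spread possibly of technical origin only.

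Chaperones bind proteins that are unfolded or newly made and keep them from aggregating. HSP70 receives its clients from J-domain proteins (the DNAJ family), releases them with exchange factors, and passes some of them through STIP1 to HSP90, while prefoldin delivers actin and tubulin to the closed chamber of the CCT ring (also called TRiC). HSF1 is held in check by these same chaperones and, when unfolded proteins draw them away, binds repeats of a short GAA unit, the heat shock element, in front of their genes. Tumour cells are known to express many of these genes without any heat stress.

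The libraries held 59327548 to 70802167 counts. SLC1A5 itself (ENSG00000105281, chr19:46774883-46788594, minus strand of GRCh38) differed little: it had 87.5, 88.02 and 88.3 FPKM (fragments scaled to the length of the gene and the size of the library) in shSLC1A5 libraries, against 95.01, 95.3 and 97.1 FPKM in shControl libraries. Its level fell by 9.02% (log2 fold change -0.14, SE 0.0183, edgeR adjusted p = 1.93e-04), so directions below are those of the libraries labelled shSLC1A5. Of the 10 markers fixed for glial and mesenchymal glioblastoma cells, VIM, CD44, FN1 and SOX9 were above 1 FPKM and GFAP, S100B, SOX2, PTPRZ1, OLIG2 and NES were below it. Markers of other cell types were uneven between libraries. The B cell markers summed to 6.02 to 11.1 FPKM in shSLC1A5 libraries and to 0.233 to 0.561 FPKM in shControl libraries. The neutrophil markers summed to 54.5 FPKM in the first shSLC1A5 library and to at most 0.516 FPKM in any other library. The 8 B cell markers summed to 644 to 1273 counts in shSLC1A5 libraries and to 14 to 31 counts in shControl libraries, with 7 of 8 higher in every shSLC1A5 library, and the 4 endothelial markers to 591 to 655 counts in shSLC1A5 libraries and to 54 to 105 in shControl libraries. The 8 neutrophil markers summed to 27 to 3376 counts in shSLC1A5 libraries and to 16 to 26 in shControl libraries (MPO at 0 in all), and the 4 of 6 listed red cell markers to 7 to 779 counts in shSLC1A5 libraries and to 0 to 6 in shControl libraries. The 4 of 5 listed T cell and leukocyte markers summed to 20 to 369 counts in shSLC1A5 libraries and to 0 to 10 in shControl libraries (CD3E at 0 in all). The first shSLC1A5 library held each of these 5 maxima. Without it, 24 member rows passed the test described below as lower and 1 as higher (HSPB1), and with it 24 and 2 did. The part of these markers in the results was otherwise not tested.

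Transcripts of chaperones were mostly lower in shSLC1A5 libraries, by modest amounts. Of the 34 member rows tested, 24 were lower, 2 were higher (HSF1 and HSPB1) and 8 did not pass edgeR's quasi-likelihood test with Benjamini-Hochberg adjustment over the 11841 genes tested, those averaging 1 FPKM or more (adjusted p under 0.05). Over all tested genes, 19.0% were lower and 20.2% were higher. The share of lower members was 70.6%, and their median log2 fold change was -0.155, against -0.01 over all tested genes. The members' FPKM did not overlap between groups for 24 rows that were lower and 3 that were higher, where 49.6% of all tested genes were apart, 22.3% lower and 27.3% higher. Together the members took 1.22% ± 0.00509 of all counts in shSLC1A5 libraries and 1.39% ± 0.0105 in shControl libraries (SD, n = 3 each). The 3 most abundant members, HSPA8, HSP90AB1 and HSP90AA1, made 0.482% ± 0.00373 of all counts in shSLC1A5 libraries and 0.573% ± 0.00281 in shControl libraries. As each library is RNA of many cells, fewer cells of a type and less RNA per cell cannot be told apart.

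**Figure D1:**
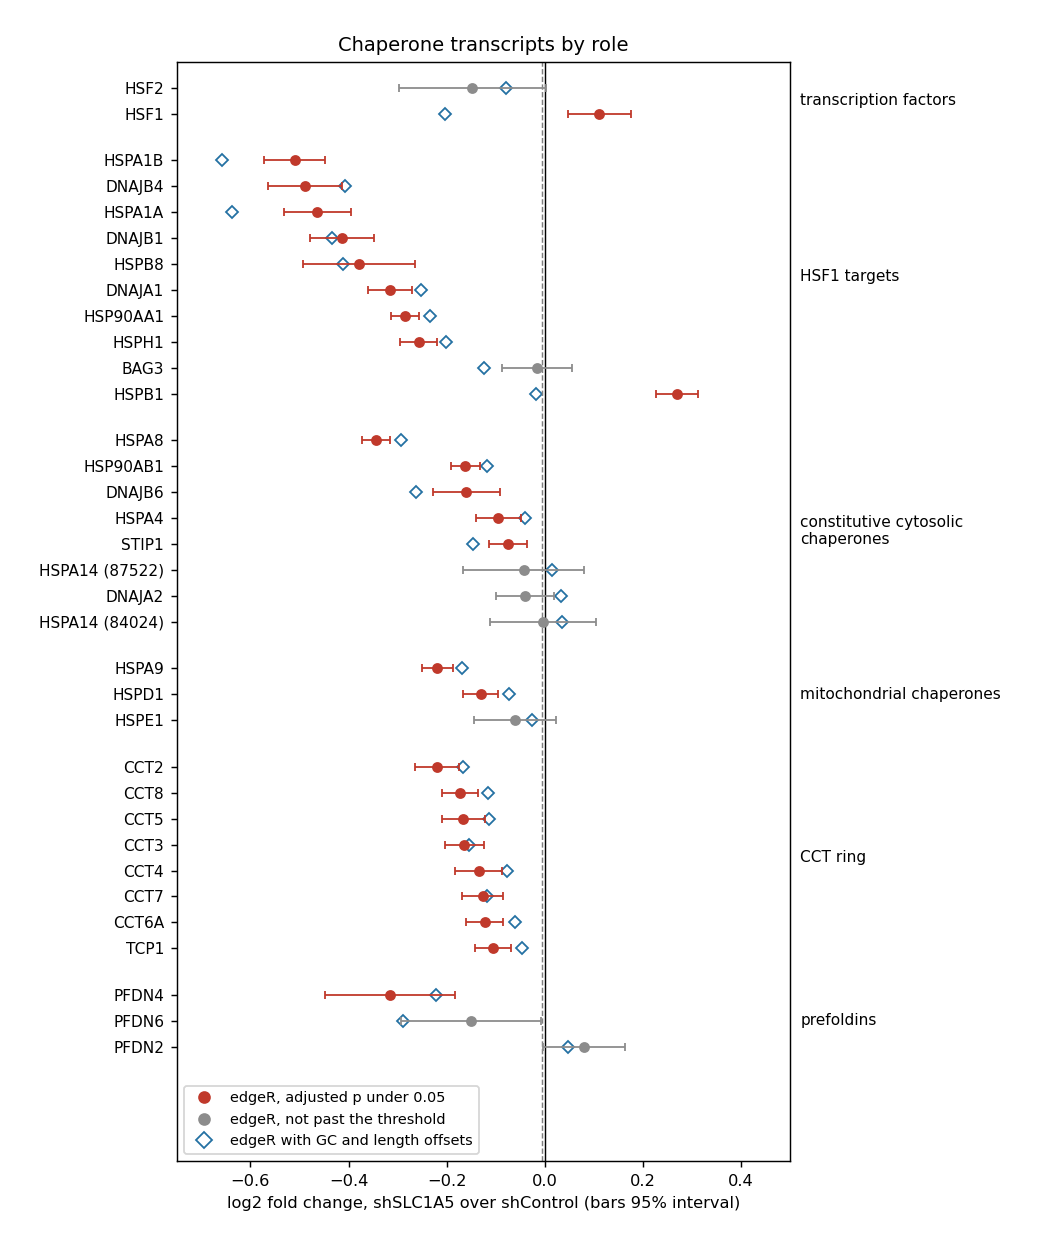
Log2 fold change of each tested member, shSLC1A5 over shControl, by role. Circles are edgeR estimates with bars of their 95% interval (red past the threshold, grey not), open diamonds are estimates with offsets for GC content and length, the dashed line is the median of all tested genes, and the numbers beside HSPA14 are the last digits of its 2 gene IDs. Most circles lie left of 0, from -0.51 for HSPA1B, with HSF1, HSPB1 and PFDN2 to the right of it and, under the offsets, HSF1 and HSPB1 to the left.

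Several properties of the table bear on how this count is read. Abundant genes were more often lower: among the 682 tested genes averaging 50 FPKM or more, 46.3% were lower and 23.9% higher, and of the 19 member rows at that level 16 were lower (84.2%) and 1 was higher. Log2 fold changes also ran with the GC content of transcripts over all tested genes (Spearman's rho 0.49 across genes, which are not independent replicates). Their median was -0.08 in the 1180 genes lowest in GC (23.1 to 38.5%) and 0.28 in the 1180 highest (61.2 to 83.9%). The members' median GC content was 45.5%, slightly below that of all tested genes, and among genes under the median GC of all tested genes 28.6% of genes and 15 of 19 member rows (78.9%) were lower. A fit with offsets for GC content and length called 26.0% of tested genes, with 10.3% higher and 15.7% lower. Higher genes made 51.6% of calls without the offsets and 39.7% with them. In that fit 25 member rows were lower and 0 were higher, with 22 lower in both fits, and the members' median was -0.14 against -0.02 over all tested genes. Of the member rows, 12 overlap another tested gene, and the counts of 46 pseudogenes of members came to at most 4.33% of a member's own count (DNAJB6). The plot against GC content shows where each member lay among genes of like composition.

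**Figure D2:**
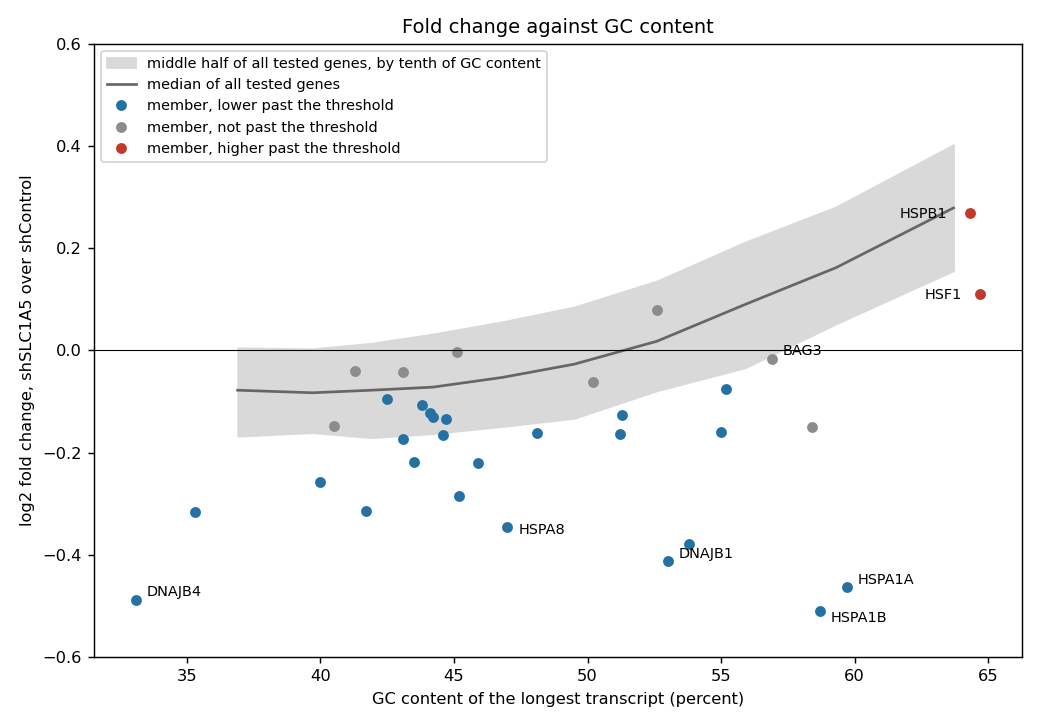
Log2 fold change (shSLC1A5 over shControl) against GC content of the longest transcript in percent. The grey line and band give the median and quartiles of all tested genes in 10 equal bins of GC content, and points are the tested members, coloured by call. HSPA1A and HSPA1B lie near -0.5 where the line is near 0.16, and HSF1 and HSPB1 lie at the high-GC end, where the line reaches 0.28.

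Of the transcription factors HSF1 passed the test and HSF2 did not. HSF1 (ENSG00000185122, chr8:144291591-144314720, plus strand), the main activator of the heat shock response, had 16.3, 16.1 and 16.3 FPKM in shSLC1A5 libraries, against 15.01, 14.7 and 14.9 FPKM in shControl libraries. The groups did not overlap, and HSF1 was 7.97% higher (log2 fold change 0.11, SE 0.0324, edgeR adjusted p = 0.0196). That call did not hold in every setting: leaving out 1 library gave edgeR adjusted p from 0.0514 to 0.0789 for 4 of the 6 libraries (shControl 2 and 3, shSLC1A5 1 and 3), and with GC and length offsets HSF1 was lower (-0.20, edgeR adjusted p = 0.00154). Its transcript is 64.7% GC and its model shares 137 bases with DGAT1 on the other strand. HSF2, a related factor that can join HSF1 on the same sites, had 6.06, 5.88 and 6.90 FPKM in shSLC1A5 libraries, against 7.22, 6.60 and 6.85 FPKM in shControl libraries. These values overlap, and the log2 fold change was -0.15 (SE 0.0761, edgeR adjusted p = 0.151).

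Of the 10 genes known to be induced by HSF1, 8 were lower, HSPB1 was higher and BAG3 did not pass the test. Their median log2 fold change was -0.35 (-0.33 with GC and length offsets), the lowest of the 6 role groups. That ranking depends on how genes were placed in role groups by list. HSPA8, HSP90AB1, DNAJB6 and HSPD1, whose promoter windows hold the longer run of the heat shock element described below, stand in other groups. Their log2 fold changes were -0.35, -0.16, -0.16 and -0.13. HSPA1A (ENSG00000204389, chr6:31815543-31817946, plus strand) and HSPA1B (ENSG00000204388, chr6:31827738-31830254, plus strand) encode the stress-inducible HSP70. HSPA1A had 29.1, 29.98 and 28.2 FPKM in shSLC1A5 libraries, against 39.2, 40.2 and 39.97 FPKM in shControl libraries, and fell by 27.5% (log2 fold change -0.46, SE 0.0347, edgeR adjusted p = 2.76e-06). HSPA1B had 32.7, 34.02 and 32.5 FPKM in shSLC1A5 libraries, against 46.2, 46.04 and 47.8 FPKM in shControl libraries, and fell by 29.8% (log2 fold change -0.51, SE 0.0315, edgeR adjusted p = 7.77e-07). For either gene each shSLC1A5 library was far below each shControl library. The split of reads between them is uncertain, as 67.1% of all stretches of 150 bases of the HSPA1A transcript occur unchanged in HSPA1B. With their counts summed, inducible HSP70 fell by 28.7% (log2 fold change -0.49, SE 0.0245, edgeR adjusted p = 1.60e-07), and the summed level was 62.2 ± 1.68 FPKM in shSLC1A5 libraries and 86.5 ± 1.18 FPKM in shControl libraries (SD, n = 3 each). With GC and length offsets the sum had a log2 fold change of -0.66.

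Other inducible chaperones were lower too. HSP90AA1 (ENSG00000080824, chr14:102080742-102139699, minus strand), the inducible HSP90, had 207, 207 and 207 FPKM in shSLC1A5 libraries, against 249, 248 and 252 FPKM in shControl libraries. It fell by 17.9% (log2 fold change -0.29, SE 0.0148, edgeR adjusted p = 2.16e-07), and the shSLC1A5 libraries were nearly equal. DNAJA1, a J-domain partner of HSP70, had 112, 114 and 112 FPKM in shSLC1A5 libraries, against 141, 135 and 142 FPKM in shControl libraries, with no overlap (log2 fold change -0.32, SE 0.0228, edgeR adjusted p = 2.24e-06). HSPH1 (HSP110), a nucleotide exchange factor for HSP70, had 29.2, 28.99 and 29.2 FPKM in shSLC1A5 libraries, against 34.6, 34.3 and 34.7 FPKM in shControl libraries, again apart in every library (log2 fold change -0.26, SE 0.0192, edgeR adjusted p = 2.74e-06). The J-domain proteins DNAJB4 and DNAJB1 were also apart in every library. DNAJB4 averaged 11.6 ± 0.176 FPKM in shSLC1A5 libraries and 16.2 ± 0.422 FPKM in shControl libraries (SD, n = 3 each), a log2 fold change of -0.49 (edgeR adjusted p = 3.79e-06). DNAJB1, the main inducible HSP40, averaged 24.6 ± 0.324 FPKM in shSLC1A5 libraries and 32.4 ± 1.30 FPKM in shControl libraries (SD, n = 3 each), a log2 fold change of -0.41 (edgeR adjusted p = 4.63e-06). Its gene model shares 12224 bases with TECR on the other strand, and without a stated strand setting reads of the pair cannot be told apart with certainty.

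The small heat shock proteins of the set differed in direction. HSPB8, which works with BAG3 in the removal of misfolded proteins, had 4.87, 5.18 and 5.05 FPKM in shSLC1A5 libraries, against 6.50, 6.70 and 6.26 FPKM in shControl libraries (log2 fold change -0.38, edgeR adjusted p = 4.96e-04). HSPB1 (HSP27), which binds unfolded proteins and actin filaments, had 144, 147 and 147 FPKM in shSLC1A5 libraries, against 121, 117 and 121 FPKM in shControl libraries. It was 20.5% higher with no overlap (log2 fold change 0.27, SE 0.0223, edgeR adjusted p = 5.77e-06), but its transcript is 64.3% GC, and with GC and length offsets the log2 fold change was -0.02 (edgeR adjusted p = 0.567). BAG3, a cofactor of HSP70 in selective autophagy, had 39.8, 42.2 and 38.8 FPKM in shSLC1A5 libraries, against 41.4, 39.6 and 40.1 FPKM in shControl libraries. These overlap (log2 fold change -0.02, SE 0.0363, edgeR adjusted p = 0.742), whereas with GC and length offsets BAG3 was lower (-0.12, edgeR adjusted p = 0.0226).

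**Figure D3:**
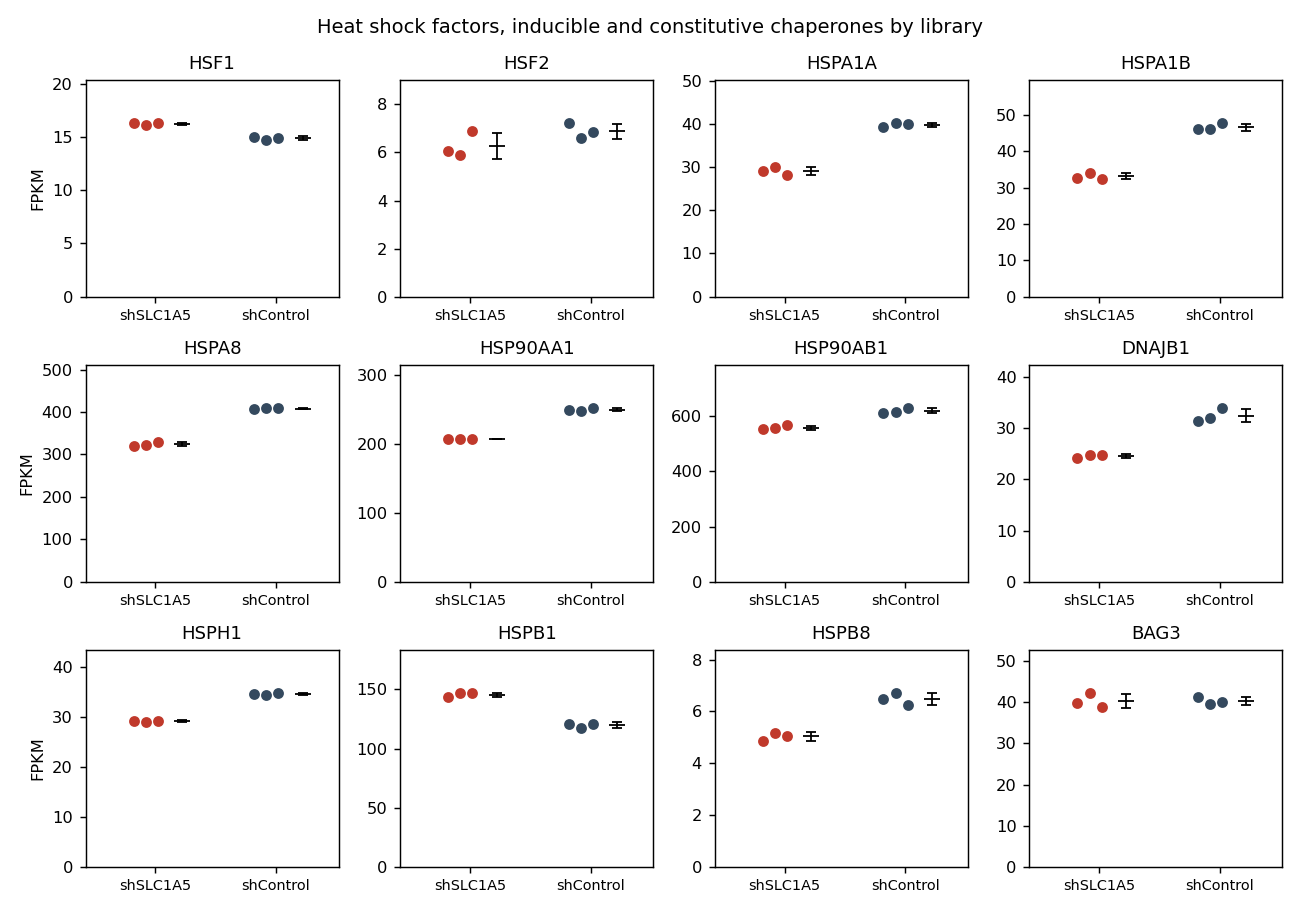
FPKM of 12 members in each library, shSLC1A5 in red left of shControl in dark blue, with mean and SD (n = 3 each) beside the points and axes that start at 0. The groups are apart in every panel except HSF2 and BAG3, and in HSF1 and HSPB1 the shSLC1A5 libraries are the higher ones.

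The sequences in front of these genes show where the letters of the heat shock element occur. RefSeq promoter windows on GRCh38.p14, from 250 bases before a transcription start to 50 after it, were at hand for 30 of the 34 members (44 windows). A run of 3 units, spelled GAANNTTCNNGAA or TTCNNGAANNTTC, which are reverse complements of each other, occurs in 6 of the 44 windows, and in 172 of the 35116 windows of all genes (0.49%). The 6 genes are HSPA8, HSP90AA1, HSP90AB1, DNAJA1, DNAJB6 and HSPD1, and all 6 were lower with and without GC and length offsets, as were 22 of the 34 member rows. Over all tested genes with such a run in a window, members left out, 15 of 36 were lower (41.7%) and 3 higher, and 12 were lower (33.3%) and 0 higher with the offsets. Among all 8637 tested genes with a window that are no members, 20.5% were lower, and 16.8% with the offsets. These shares are a description and were not tested. The genes compared were not matched for level, and among the 682 tested genes averaging 50 FPKM or more 46.3% were lower. HSPA1A, HSPA1B and DNAJB1 hold the shorter run of 2 units, spelled GAANNTTC or TTCNNGAA and contained in the longer run, which occurs in 19 of the 30 member genes and in 16.2% of all genes. The windows of HSPH1, HSPA4, CCT3, CCT5, CCT7, CCT8 and PFDN4, which were lower, hold no run of 2 units. Nor do those of BAG3, HSPE1, HSF2 and DNAJA2, which did not pass the test. The run of HSPD1, in a stretch that ends at base 197500090, also lies before the HSPE1 model. That model starts at base 197500140 on the other strand, so for HSPE1 the absence holds for its promoter window alone. A match is a description of these letters and not a binding site. The runs of 3 units are shown here on the strand of each gene, with the matched letters in capitals; in HSPD1 a pair of matches overlap in 1 longer run. The run of HSPD1 and the first of HSPA8 begin 245 and 230 bases before the start, HSP90AB1 has 2 runs, and the run of DNAJA1, 4 to 16 bases after its start, is not printed.
HSPA8 chr11:123062346-123062375 minus: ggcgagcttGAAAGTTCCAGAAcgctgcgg
HSPA8 chr11:123062171-123062200 minus: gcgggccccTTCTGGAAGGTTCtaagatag
HSP90AA1 chr14:102087112-102087141 minus: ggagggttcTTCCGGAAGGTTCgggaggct
HSP90AB1 chr6:44247769-44247798 plus: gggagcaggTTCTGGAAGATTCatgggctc
HSP90AB1 chr6:44247822-44247851 plus: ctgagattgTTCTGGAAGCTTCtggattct
HSPD1 chr2:197500061-197500090 minus: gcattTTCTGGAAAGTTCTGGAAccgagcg
DNAJB6 chr7:157336864-157336893 plus: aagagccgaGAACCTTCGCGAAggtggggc
Genes with runs of 2 units alone follow, since they include HSPA1B, which had the lowest log2 fold change, and HSPB1, which was higher. HSPA1A and HSPA1B carry the same capital letters, 106 and 105 bases before their starts. For HSPA1B and DNAJB1 the whole 250 bases before the start are given, and DNAJB1 has 2 runs.
HSPA1A chr6:31815426-31815455 plus: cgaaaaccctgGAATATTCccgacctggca
HSPB1 chr7:76302480-76302509 plus: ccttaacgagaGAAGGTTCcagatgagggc
HSPA1B chr6:31827488-31827737 plus: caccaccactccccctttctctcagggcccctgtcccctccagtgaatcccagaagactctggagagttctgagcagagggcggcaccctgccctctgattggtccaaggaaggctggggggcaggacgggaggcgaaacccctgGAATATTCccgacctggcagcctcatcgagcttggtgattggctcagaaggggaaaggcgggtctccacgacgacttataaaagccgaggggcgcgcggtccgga
DNAJB1 chr19:14518398-14518647 minus: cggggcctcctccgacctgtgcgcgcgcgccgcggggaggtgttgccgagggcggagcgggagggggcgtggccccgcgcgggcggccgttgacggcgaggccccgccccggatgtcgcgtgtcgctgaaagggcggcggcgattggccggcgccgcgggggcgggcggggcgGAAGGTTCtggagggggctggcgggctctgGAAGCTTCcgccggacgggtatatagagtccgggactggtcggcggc
In GENCODE 29 the HSPA1A, HSPB1, HSP90AB1 and DNAJB6 stretches lie outside exons, the HSP90AA1 stretch and the second HSPA8 stretch lie in UTRs of longer transcripts of the same genes, and the HSPD1 stretch lies where transcripts of HSPD1 and HSPE1 overlap, since an HSPE1 transcript starts earlier there than the model of the deposited table. Of the first HSPA8 stretch 7 bases lie in a UTR of HSPA8. The DNAJB1 stretch lies within a transcript of TECR, with 23 of its bases in a UTR of DNAJB1, and 3 bases of the HSPA1B stretch lie in a UTR of HSPA1B.

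The constitutive cytosolic chaperones were lower in 5 of 8 rows tested and higher in 0, with a median log2 fold change of -0.085 (-0.08 with GC and length offsets). HSPA8 (ENSG00000109971, chr11:123057489-123063230, minus strand), the constitutive HSC70, had 320.0, 323 and 329 FPKM in shSLC1A5 libraries, against 407, 408 and 409 FPKM in shControl libraries. Every shSLC1A5 library was lower, and the transcript fell by 21.3% (log2 fold change -0.35, SE 0.0145, edgeR adjusted p = 4.34e-08), the lowest adjusted p of the set. HSP90AB1 (ENSG00000096384, chr6:44246166-44253888, plus strand), the constitutive HSP90 and the most abundant member, had 553, 556 and 567 FPKM in shSLC1A5 libraries, against 612, 617 and 629 FPKM in shControl libraries. Its groups were apart as well, and it fell by 10.6% (log2 fold change -0.16, SE 0.0152, edgeR adjusted p = 1.63e-05). DNAJB6, a J-domain protein that holds back aggregation of polyglutamine proteins, had 10.8, 11.8 and 11.3 FPKM in shSLC1A5 libraries, against 12.01, 13.1 and 12.4 FPKM in shControl libraries (log2 fold change -0.16, SE 0.0351, edgeR adjusted p = 0.00441), and its groups did not overlap either.

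The other constitutive members differed by small amounts or did not pass. HSPA4 (APG-2), an HSP110-type exchange factor, had 60.8, 60.4 and 60.3 FPKM in shSLC1A5 libraries, against 61.6, 65.5 and 65.04 FPKM in shControl libraries, and fell by 6.34% (log2 fold change -0.10, edgeR adjusted p = 0.00858). With GC and length offsets its log2 fold change was -0.04 (edgeR adjusted p = 0.234). STIP1 (HOP), which links HSP70 and HSP90, averaged 82.2 ± 0.553 FPKM in shSLC1A5 libraries and 85.8 ± 1.42 FPKM in shControl libraries (SD, n = 3 each) and fell by 5.05% (edgeR adjusted p = 0.0113). Under quantile normalization with limma the log2 fold change of STIP1 was -0.01 (limma adjusted p = 0.838). DNAJA2, a J-domain partner of HSC70, averaged 18.9 ± 0.159 FPKM in shSLC1A5 libraries and 19.3 ± 0.344 FPKM in shControl libraries (SD, n = 3 each) and did not pass (log2 fold change -0.04, edgeR adjusted p = 0.319). The 2 models of HSPA14, an HSP70-type protein bound to ribosomes, share 8713 bases on the same strand, so their reads cannot be told apart with certainty. They had log2 fold changes of -0.04 and -0.004 (edgeR adjusted p = 0.622 and 0.956). HSPA4L, a paralog of HSPA4, was below the level tested, with 0.373, 0.378 and 0.299 FPKM in shSLC1A5 libraries, against 0.393, 0.415 and 0.369 FPKM in shControl libraries.

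Ratios of FPKM between partners were also taken in each library. The sum of HSPA1A and HSPA1B over HSPA8 was 0.192 ± 0.00705 in shSLC1A5 libraries and 0.212 ± 0.00247 in shControl libraries (SD, n = 3 each), a lower level of inducible against constitutive HSP70. HSP90AA1 over HSP90AB1 was 0.370 ± 0.00512 in shSLC1A5 libraries and 0.403 ± 0.00332 in shControl libraries, again a lower ratio of the inducible to the constitutive form. HSPA4 over HSPA8, an exchange factor against its HSP70, was 0.187 ± 0.00346 in shSLC1A5 libraries and 0.157 ± 0.00492 in shControl libraries, a higher ratio. HSPH1 over HSPA8, another such pair, was 0.0899 ± 0.00142 in shSLC1A5 libraries and 0.0846 ± 0.000504 in shControl libraries. DNAJB1 over HSPA8 was 0.0758 ± 0.000538 in shSLC1A5 libraries and 0.0795 ± 0.00305 in shControl libraries. STIP1 over HSP90AB1 was 0.147 ± 0.00171 in shSLC1A5 libraries and 0.138 ± 0.00168 in shControl libraries. The groups did not overlap in any of these 6 ratios. Each gave p = 0.1 in an exact two-sided permutation test, the smallest value that 3 libraries against 3 allow (0.143 after Benjamini-Hochberg adjustment over 20 ratios and shares tested this way). Taken as the difference of the fitted log2 fold changes of its 2 genes, STIP1 over HSP90AB1 was 0.09 without and -0.03 with GC and length offsets, so its direction turned. The other 5 ratios kept theirs, with -0.37 with and -0.14 without the offsets for inducible HSP70 over HSPA8, and -0.14 with and -0.07 without them for DNAJB1 over HSPA8.

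The mitochondrial chaperones were lower in 2 of 3 genes, with a median log2 fold change of -0.13 (-0.07 with GC and length offsets). HSPA9 (mortalin), the HSP70 of the mitochondrial matrix, had 83.8, 86.5 and 85.6 FPKM in shSLC1A5 libraries, against 97.3, 98.8 and 99.1 FPKM in shControl libraries (log2 fold change -0.22, SE 0.0159, edgeR adjusted p = 2.25e-06). HSPD1 (HSP60), the chaperonin of the matrix, had 155, 153 and 159 FPKM in shSLC1A5 libraries, against 167, 169 and 171 FPKM in shControl libraries (log2 fold change -0.13, SE 0.0183, edgeR adjusted p = 2.53e-04). For both genes the groups were apart. HSPE1 (HSP10), the lid of that chaperonin, had 53.4, 50.1 and 53.95 FPKM in shSLC1A5 libraries, against 55.96, 51.7 and 55.2 FPKM in shControl libraries, which overlap (log2 fold change -0.06, SE 0.0428, edgeR adjusted p = 0.285). HSPD1 and HSPE1 lie head to head on chromosome 2, with models that share 135 bases. The ratio of HSPE1 to HSPD1 was 0.337 ± 0.00908 in shSLC1A5 libraries and 0.321 ± 0.0141 in shControl libraries (SD, n = 3 each), with overlapping values and p = 0.2 in an exact two-sided permutation test (0.25 adjusted).

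The CCT ring had the narrowest range of log2 fold changes among the role groups. All 8 subunits, which occupy fixed places in each ring, were lower, with log2 fold changes from -0.22 to -0.11, a median of -0.15 (-0.115 with GC and length offsets), and no overlap between groups for any of them. CCT2 had 48.9, 50.2 and 51.4 FPKM in shSLC1A5 libraries, against 56.8, 57.9 and 59.1 FPKM in shControl libraries (log2 fold change -0.22, SE 0.0230, edgeR adjusted p = 3.41e-05). CCT8 had 114, 114 and 112 FPKM in shSLC1A5 libraries, against 126, 126 and 128 FPKM in shControl libraries (log2 fold change -0.17, SE 0.0183, edgeR adjusted p = 3.62e-05). CCT3 had 93.9, 95.8 and 95.9 FPKM in shSLC1A5 libraries, against 105, 104 and 108 FPKM in shControl libraries (log2 fold change -0.16, SE 0.0198, edgeR adjusted p = 9.26e-05). In each of these subunits every shSLC1A5 library lay below every shControl library. CCT5 had 93.7, 93.1 and 95.98 FPKM in shSLC1A5 libraries, against 104, 103 and 108 FPKM in shControl libraries (log2 fold change -0.17, SE 0.0225, edgeR adjusted p = 2.10e-04). The log2 fold change was -0.14 for CCT4, -0.12 for CCT6A, -0.13 for CCT7 and -0.11 for TCP1, the founding subunit. For TCP1, whose model shares 615 bases with ACAT2 on the other strand, the call was lost with GC and length offsets (-0.05, edgeR adjusted p = 0.0861), and for CCT7 under quantile normalization (-0.06, limma adjusted p = 0.0528).

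The subunits' shares of the ring differed little between groups. Their summed level was 711 ± 6.50 FPKM in shSLC1A5 libraries and 782 ± 12.2 FPKM in shControl libraries (SD, n = 3 each). CCT2 made 7.06% ± 0.118 of the ring's FPKM in shSLC1A5 libraries and 7.41% ± 0.0692 in shControl libraries, while TCP1 made 8.32% ± 0.0264 in shSLC1A5 libraries and 8.07% ± 0.0497 in shControl libraries. CCT3 made 13.4% ± 0.0363 in shSLC1A5 libraries and 13.5% ± 0.0976 in shControl libraries. For these 3 subunits the groups did not overlap (exact two-sided permutation p = 0.1, the smallest possible), and for the other 5 they did (exact p from 0.2 to 0.7).

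**Figure D4:**
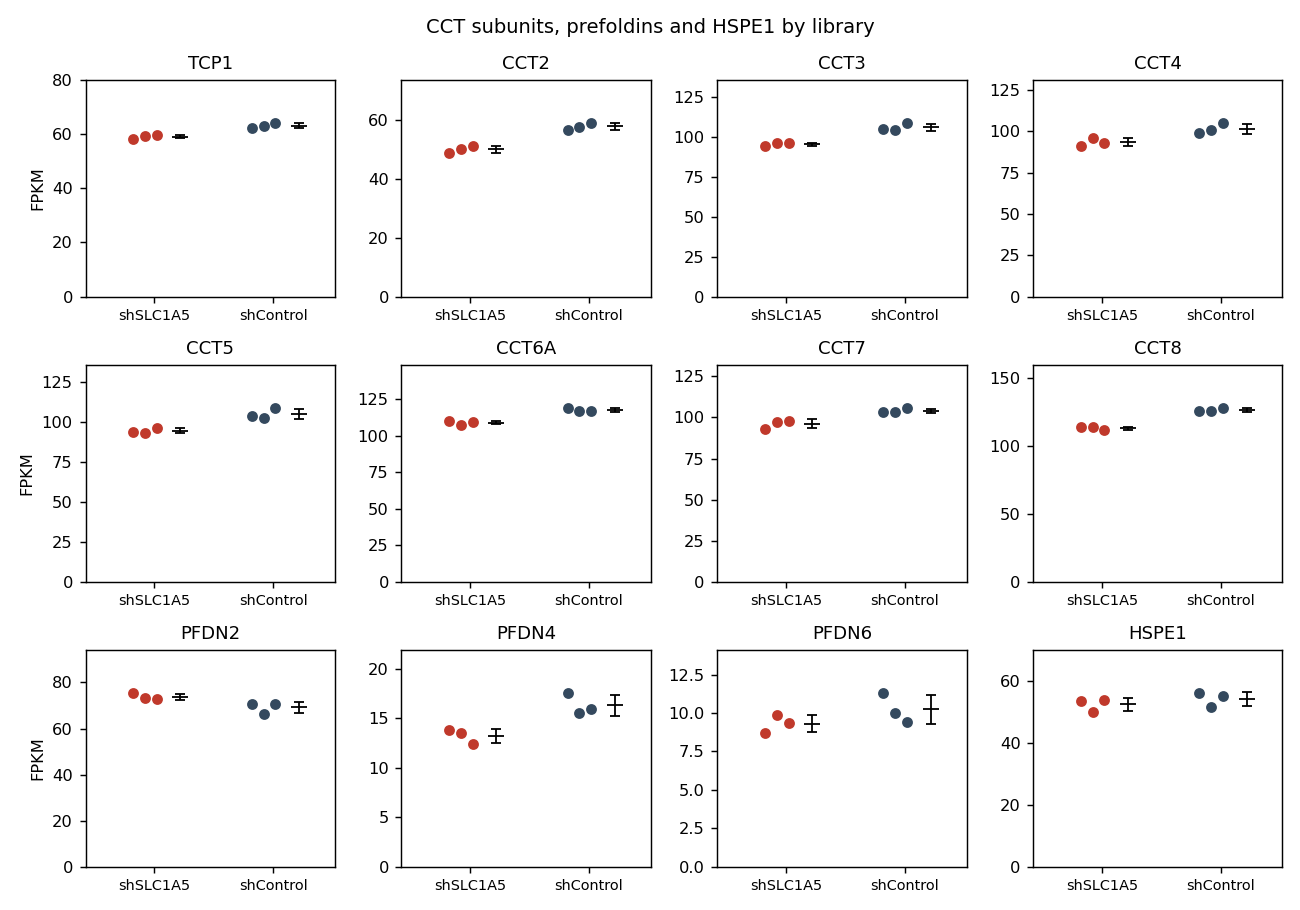
FPKM of the 8 CCT subunits, the 3 prefoldins and HSPE1 in each library, shSLC1A5 in red left of shControl in dark blue, with mean and SD (n = 3 each) and axes that start at 0. Every CCT panel has the shSLC1A5 libraries below the shControl libraries by a narrow margin, PFDN2 has them above, and PFDN6 and HSPE1 overlap.

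The prefoldins, which hand nascent actin and tubulin to the ring, differed among themselves. PFDN4 had 13.8, 13.5 and 12.4 FPKM in shSLC1A5 libraries, against 17.5, 15.5 and 15.96 FPKM in shControl libraries, and fell by 19.7% with no overlap (log2 fold change -0.32, SE 0.0676, edgeR adjusted p = 0.00383). PFDN6 had 8.73, 9.84 and 9.34 FPKM in shSLC1A5 libraries, against 11.3, 10.01 and 9.40 FPKM in shControl libraries, which overlap (log2 fold change -0.15, SE 0.0728, edgeR adjusted p = 0.128). It passed as lower with GC and length offsets (-0.29, edgeR adjusted p = 0.0133). PFDN2 had 75.3, 73.3 and 72.96 FPKM in shSLC1A5 libraries, against 70.8, 66.4 and 70.5 FPKM in shControl libraries. Every shSLC1A5 library was above the shControl libraries, yet the difference did not pass edgeR (log2 fold change 0.08, SE 0.0426, edgeR adjusted p = 0.163), while limma on log2(FPKM + 1) put it just past the threshold (0.09, limma adjusted p = 0.0484).

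Genes outside the set that work with it gave a mixed picture, and their counts are to be read against the 19.0% lower and 20.2% higher of all tested genes. These lists, like the members, were chosen with earlier results of these data known, so their shares are no independent check on the members. Among 10 tested genes of a further list of HSF1 targets, 7 were lower (70.0%) and 0 higher. With GC and length offsets 7 were lower and 0 higher as well, but only 5 were lower in both fits. Another 4 genes of that list were below the level tested. CHORDC1, an HSP90 co-chaperone, averaged 10.03 ± 0.200 FPKM in shSLC1A5 libraries and 12.5 ± 0.387 FPKM in shControl libraries (SD, n = 3 each; log2 fold change -0.33, edgeR adjusted p = 1.80e-05). IER5, an HSF1-dependent immediate early gene, had a log2 fold change of -0.23 (edgeR adjusted p = 1.84e-04). Other prefoldin subunits and CCT assistants were lower in 4 of 10 genes and higher in 0 (3 lower and 0 higher with GC and length offsets). The prefoldin subunits PFDN5, VBP1 and PFDN1 were at -0.18, -0.22 and -0.20 on the log2 scale (edgeR adjusted p = 0.00158, 0.00164 and 0.00197). With PFDN4, 4 of the 6 prefoldin subunits were lower. HSP90 co-chaperones were lower in 6 and higher in 3 of 14 genes (5 lower and 3 higher with GC and length offsets). FKBP8, a membrane-bound immunophilin, was the largest rise named here (log2 fold change 0.57, edgeR adjusted p = 1.79e-05; 0.22 with GC and length offsets), while TOMM34 and PPID, which carry repeats that dock HSP90, were lower (-0.31 and -0.32, edgeR adjusted p = 1.82e-05 and 2.18e-04). Exchange factors and cofactors of HSP70 were lower in 2 and higher in 3 of 10 genes, against 3 lower and 1 higher with the offsets. BAG2, an inhibitor of the ubiquitin ligase STUB1, and HSPA13 were lower (-0.28 and -0.18, edgeR adjusted p = 4.35e-04 and 2.10e-04). HSPA13 is itself an HSP70-type protein, although it was placed in this list. STUB1 (CHIP) was higher (0.39, edgeR adjusted p = 6.21e-04), a call lost with GC and length offsets (0.08, edgeR adjusted p = 0.381). Of the other genes called higher, HSPBP1 lost its call with the offsets as well (-0.08, edgeR adjusted p = 0.387) and BAG6 was lower (-0.125, edgeR adjusted p = 0.00396). Other cytosolic DNAJ proteins were lower in 3 and higher in 2 of 17 genes (2 lower and 1 higher with the offsets), with log2 fold changes of -0.17 for DNAJC8, 0.24 for DNAJC5 and 0.41 for DNAJC17 (edgeR adjusted p = 9.12e-04, 1.71e-04 and 0.00604). For DNAJC5 the call was lost with GC and length offsets (0.07, edgeR adjusted p = 0.194), and for DNAJC17 with a replicate block added to them (0.29, edgeR adjusted p = 0.0516). None of the 6 other small heat shock proteins reached 1 FPKM.

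**Figure D5:**
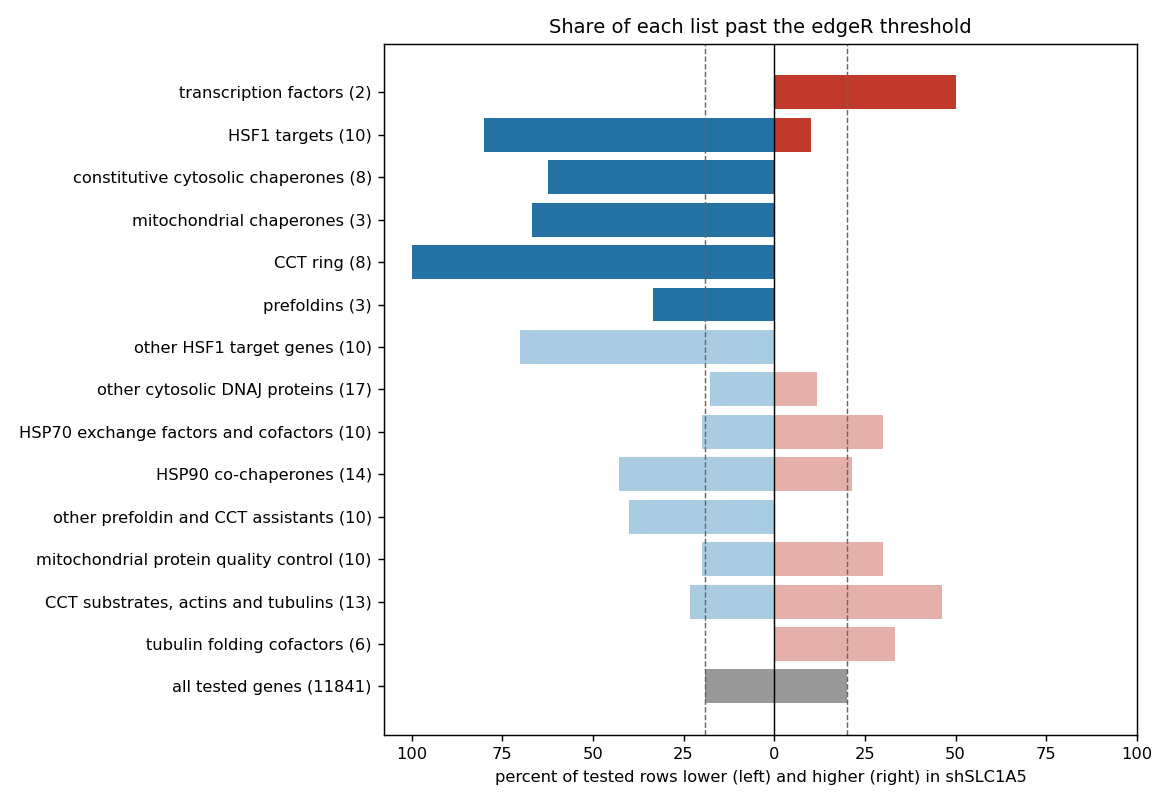
Percent of tested rows of each list past the edgeR threshold, lower in shSLC1A5 to the left and higher to the right, with the number of tested rows in brackets. Dark bars are the 6 role groups of the set, pale bars are other lists, and the grey bar and dashed lines give all tested genes (19.0% lower, 20.2% higher). All 8 rows of the CCT ring and 8 of 10 HSF1 targets are on the left.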

How the data were processed

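RNA of 6 T98G libraries was sequenced as read pairs after oligo(dT) capture, per the labels' protocols. The authors deposited counts and FPKM per gene and library, per the file headers. The submitters' processing notes list fastp, HISAT2 and StringTie. No source used here gives the build, annotation, strand setting or handling of reads with several matches, so overlapping genes and near copies are uncertain. GENCODE 29 holds 34674 of the listed IDs, 99.88% of them at an overlapping place on GRCh38, the build used for the table's coordinates.

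Counts were tested with edgeR 4.0.16 in R 4.3.3 (TMM, group alone, quasi-likelihood F tests, Benjamini-Hochberg adjustment over 11841 genes averaging 1 FPKM or more). The SE of a log2 fold change is its size over the square root of F. The biological coefficient of variation was 0.0982. Libraries of a group differed by 9.82 to 16.7 times counting noise (chi-square per gene), so none repeats another. GC and length offsets were loess fits (span 0.3) on the longest GENCODE 29 transcript of a gene. Alternatives were DESeq2 1.42.0, limma 3.58.1 on log2(FPKM + 1), on log2(FPKM + 0.1) and after quantile normalization, other size factors and filters, sums of near copies, a replicate block and omission of each library. The fit was tested on counts simulated from its own means and dispersions, with known changes in some genes. That simulation held no trend with GC content, so it cannot show how the fit behaves under the trend seen here. The members and lists were chosen with earlier results of these data known. All members are named, with values per library for HSF1, HSF2, HSPA1A, HSPA1B, HSPA8, HSP90AA1, HSP90AB1 and the 4 members per role of lowest adjusted p. Up to 3 genes of lowest adjusted p are named per other list, except 1 that is not reported here. Values per library of HSPB1, HSPB8, BAG3 and HSPA4L, the ratios, and HSPBP1, BAG6, CLPP, TRAP1 and CLPX were chosen after they were seen.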

Additional observations from a re-analysis of the deposited data

How the results depend on the processing

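Over 678 member values under alternatives (20 per row at most), 638 kept the direction and the side of the threshold, and 20 of the 26 called rows did so in every alternative run. Members lower ranged from 21 (quantile normalization) to 25 under all alternatives. With GC and length offsets 3075 genes changed, against 4641 in the chosen fit, and 0 members were higher; adding the replicate block to the offsets gave 2943 genes and 0 members. The replicate block alone gave 4470 genes and changed no member's call. Same-numbered libraries correlated at -0.151, 0.036 and -0.034 in their deviations from the group means, so the numbers only name the libraries. Leaving out each library gave 3863 to 4081 genes, 24 to 25 members lower and 1 to 2 higher. For role medians of log2 fold change, omission gave -0.054 to 0.011 for the transcription factors (0.006 without shControl 1 and 0.011 without shSLC1A5 2, both reversed), -0.36 to -0.34 for HSF1 targets, -0.106 to -0.075 for constitutive chaperones, -0.14 to -0.12 for mitochondrial chaperones, -0.16 to -0.14 for the CCT ring and -0.21 to -0.07 for prefoldins. With the offsets, without or with the block, medians were -0.141 and -0.142 for the transcription factors, -0.33 for HSF1 targets, -0.073 for mitochondrial chaperones and -0.115 for the CCT ring. The HSF1-target median was -0.315 with HSPA1A and HSPA1B summed, -0.33 and -0.305 in limma with pseudocounts of 0.1 and 1, and -0.33 at a mean of at least 5 FPKM. The constitutive median was -0.105 with filterByExpr and -0.064 under quantile normalization, which gave -0.1 for the CCT ring. Reversed members under the offsets, without and with the block, were HSF1 (-0.204 in both), HSPB1 (-0.019 in both), DNAJA2 (0.032 in both), HSPA14 ENSG00000187522 (0.014 and 0.015) and HSPA14 ENSG00000284024 (0.035 in both). That second HSPA14 row also reversed in limma (0.009 and 0.007 with pseudocounts of 0.1 and 1), at 5 FPKM (0.013), with upper-quartile factors (0.006), and without shControl 2 (0.029), shSLC1A5 1 (0.020) or shSLC1A5 3 (0.000), with a range of -0.033 to 0.029 over omissions. BAG3 reversed under quantile normalization (0.004) and without shControl 1 (0.006) or shSLC1A5 3 (0.011), with a range of -0.049 to 0.011 over omissions. The calls of HSPA4 were also lost in limma (adjusted p = 0.0559 and 0.0563) and under quantile normalization (limma adjusted p = 0.0951). The cause of these changes was not tested. SEs of members ran up to 0.0761 on the log2 scale (HSF2), which limits what 3 libraries a group can show for the less precise rows.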

Other observations

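Actins and tubulins, the main clients of the CCT ring, had mixed calls: of 13 genes tested, 6 were higher (46.2%) and 3 lower (23.1%), against 1 higher and 5 lower with GC and length offsets. ACTG1, cytoplasmic actin, averaged 759.6 ± 10.6 FPKM in shSLC1A5 libraries and 658 ± 8.81 FPKM in shControl libraries (SD, n = 3 each), a log2 fold change of 0.20 (edgeR adjusted p = 2.22e-06; 0.07 with the offsets, edgeR adjusted p = 0.00210). The alpha-tubulins TUBA1C and TUBA1B were lower (-0.19 and -0.09, edgeR adjusted p = 9.40e-05 and 0.00117; -0.20 and -0.17 with the offsets). Among 6 rows of tubulin folding cofactors 2 were higher and 0 lower, TBCD at 0.26 and TBCB at 0.25 on the log2 scale (edgeR adjusted p = 0.00160 and 0.00525), and the call of TBCB was lost with GC and length offsets (0.10, edgeR adjusted p = 0.280).

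Proteases and cofactors of mitochondrial quality control were higher in 3 and lower in 2 of 10 genes, against 1 higher and 2 lower with GC and length offsets. The 3 higher calls, LONP1, CLPP and TRAP1, were all lost with the offsets, and the 1 gene higher there was CLPX. The protease LONP1 averaged 26.4 ± 0.376 FPKM in shSLC1A5 libraries and 21.5 ± 0.640 FPKM in shControl libraries (SD, n = 3 each; log2 fold change 0.29, edgeR adjusted p = 4.26e-05), and with the offsets its log2 fold change was 0.02 (edgeR adjusted p = 0.660). YME1L1, a protease of the inner membrane, and GRPEL2, an exchange factor for HSPA9, were lower (-0.19 and -0.27, edgeR adjusted p = 9.29e-05 and 0.00694). Without a filter on low values the call of GRPEL2 was lost (edgeR adjusted p = 0.0515).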
